A study of Mus musculus with 19 samples.

Results

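V1r receptors are the pheromone receptors of the apical neurons of the vomeronasal organ (VNO), and the genes described here are all those whose mouse symbol starts with Vmn1r, with pseudogenes (symbols ending in -ps) left out. The GENCODE vM21 annotation of GRCm38 (mm10) holds 327 Vmn1r symbols, of which 120 are such pseudogenes. The remaining genes have 208 identifiers, since Vmn1r216 has 2, and 201 of these were quantified among 35596 genes in all. The data are mRNA-seq libraries of whole VNOs from female mice at postnatal day 21, in 6 groups of 3. In the AP-2εCre line the groups were AP-2εCre+/-/Smad4flox/flox conditional knockouts (cKO), heterozygous AP-2εCre+/- controls (het) and Smad4flox/flox controls (flox), and in the OMPCre line OMPCre+/-/Smad4flox/flox cKO, heterozygous OMPCre+/- controls and Smad4flox/flox controls. The labels call the flox groups wild type, and the genotype given in the study's methods is used here. The flox groups carry no Cre allele. The study's methods name AP-2εCre as an allele of Tfap2e, the gene of AP-2ε. The study also mentions decreased OMP expression with OMPCre. Omp was at 224.6 to 248.1 CPM in OMPCre het against 305.3 to 472.5 in flox of that line. AP-2εCre recombines in the basal neurons, which do not use V1r receptors, whereas OMPCre recombines in mature neurons, apical as well as basal. Smad4, the mediator shared by canonical BMP and TGFβ signaling, is removed from the Cre-expressing cells, while the libraries hold the whole organ. The cell type label names only immature basal neurons for the AP-2εCre line and mature neurons of both zones for the OMPCre line, but RNA of V1r genes and of the apical marker Gnai2 was present in every library of both. Smad4 was at 33.8 to 66.5 CPM in the AP-2εCre cKO libraries against 39.6 to 81.0 in their 6 controls, which overlapped, and at 54.4 to 62.4 CPM in the OMPCre cKO libraries against 64.6 to 83.8, which did not.

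Each V1r neuron is known to transcribe a single V1r allele, and the receptor signals through the G protein subunit Gαi2 (Gnai2) to the channel Trpc2. In whole tissue, the amount of RNA of one V1r gene therefore rests on how many neurons chose it and on how much RNA each makes, and fewer cells and less RNA per cell cannot be told apart here. V1r genes arose by repeated duplication and lie in clusters of close copies, so a short read can match several of them. Levels of different genes are compared below as TPM, which is scaled by transcript length, and libraries are compared as CPM, counts scaled to a common library size with TMM.

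The sequences below show how alike and how unlike the receptors are. The first set holds the first 60 coding bases, with the start codon in capitals, of the genes on which the results turn (GRCm38, strand of the gene). Vmn1r1 lies at chr1:182158039-182158098 on the minus strand, Vmn1r37 at chr6:66731392-66731451 on the plus strand, Vmn1r47 at chr6:90021888-90021947 on the plus strand and Vmn1r185 at chr7:26612019-26612078 on the minus strand. Vmn1r7 lies at chr6:57025214-57025273 on the minus strand and Vmn1r20 at chr6:57431691-57431750 on the plus strand.
Vmn1r1: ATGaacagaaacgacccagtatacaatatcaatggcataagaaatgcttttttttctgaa
Vmn1r37: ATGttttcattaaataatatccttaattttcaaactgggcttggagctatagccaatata
Vmn1r47: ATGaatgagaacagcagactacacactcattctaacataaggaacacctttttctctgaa
Vmn1r185: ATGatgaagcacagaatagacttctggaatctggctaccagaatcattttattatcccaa
Vmn1r7: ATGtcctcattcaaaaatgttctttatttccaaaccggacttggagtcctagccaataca
Vmn1r20: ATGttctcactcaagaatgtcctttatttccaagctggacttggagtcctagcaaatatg

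The second set shows how little sets some members apart. In 3 near-identical genes of chromosome 7, the coding sequence of 966 bases differs between Vmn1r114 and Vmn1r126 at 2 positions, between Vmn1r93 and Vmn1r114 at 3 and between Vmn1r93 and Vmn1r126 at 5. The stretch of 75 bases shown, the length of 1 read, spans coding bases 653 to 727, and capitals mark the positions that differ within the set. It was chosen because no other such stretch holds more of these positions. All 3 positions that part Vmn1r93 from Vmn1r114 lie in it, so the rest of their coding sequence is the same. Vmn1r114 and Vmn1r126 do not differ within this stretch. It lies at chr7:20138362-20138436 in Vmn1r93, chr7:20811460-20811534 in Vmn1r114 and chr7:21300741-21300815 in Vmn1r126, all on the minus strand.
Vmn1r93: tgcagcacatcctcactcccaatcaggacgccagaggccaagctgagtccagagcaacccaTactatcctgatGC
Vmn1r114: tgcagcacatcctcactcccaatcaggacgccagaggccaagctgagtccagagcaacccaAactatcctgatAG
Vmn1r126: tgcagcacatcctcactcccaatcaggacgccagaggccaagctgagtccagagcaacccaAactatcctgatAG

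The members fell into 14 stretches of the genome, cut where neighbouring members lay over 1000000 bases apart and numbered by chromosome. The largest was cluster 7.4 on chromosome 7 with 65 members (20099680 to 24063554), followed by 13.1 with 35 (22084440 to 23253906), 6.1 with 28 (56924015 to 58475330), 7.2 with 24 (10272991 to 13220657), 6.3 with 15 (89707540 to 90271213), 17.1 with 14 (20414146 to 21314912), 7.1 with 11 (5129291 to 6011010) and 6.2 with 8 (66552180 to 66810609). Older RefSeq names place 126 members in lettered subfamilies, and these followed the clusters: V1rc genes in 6.1 and 6.2, V1ra and V1rb in 6.3, V1rd in 7.1 and 7.4, V1rh and V1ri in 13.1. Vmn1r1 stands alone on chromosome 1.

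Reads of 75 bases tell most members apart but not all. In the median member, 2.66% of the 75-base stretches of its transcripts also occur in another V1r gene, and 29 members share none with any gene. At the other end, 38 members share over 50% with another V1r gene. Grouping members that share over 50% of their stretches gave 13 units of near-identical genes with 35 members, 31 of them in cluster 7.4. A further 7 members (Vmn1r130, Vmn1r131, Vmn1r135, Vmn1r137, Vmn1r138, Vmn1r148 and Vmn1r155, all in cluster 7.4) had no value of their own, because each has a transcript identical throughout to that of a quantified member. For example, Vmn1r130 and Vmn1r137 are both identical to Vmn1r165.

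V1r transcripts were a small part of each library. Total estimated counts were 43385516 to 134042284 per library, of which V1r genes took 0.157% to 0.308%. Of the 201 members, 152 had at least 1 count in every library and 149 had at least 10. Vmn1r149, Vmn1r186 and Vmn1r238 were at 0 in every library, and Vmn1r149 shares most of its sequence with Vmn1r101.

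Levels differed widely between receptors. Vmn1r37 (V1rc10, cluster 6.2) was the most abundant at 65.4 ± 18.1 TPM (SD, n = 18), followed by Vmn1r89 (V1rj2, cluster 7.2) at 39.8 ± 8.56 TPM. Vmn1r35 was at 27.0 ± 9.03 TPM, Vmn1r27 at 25.9 ± 5.98, Vmn1r85 (V1rj3) at 22.1 ± 7.46, Vmn1r33 at 20.9 ± 7.06, Vmn1r28 at 19.3 ± 4.10 and Vmn1r184 at 16.7 ± 5.13, and from Vmn1r35 on these neighbours lay within 1 SD of each other. Vmn1r89 and Vmn1r85 are known to respond to sulfated steroids. The 8 genes made up 30.5% of all V1r TPM, and 22 members made up 50% of it, against a median member at 1.98 TPM. V1rc genes led by TPM: cluster 6.2, with 8 members, gave 21.1% of V1r TPM and cluster 6.1 another 14.3%, while cluster 7.4, with 58 quantified members, gave 6.42%. By CPM, which is not scaled by transcript length, clusters 7.2 (19.1% of the V1r sum) and 13.1 (18.2%) led and cluster 6.2 held 10.8%. Vmn1r37 shares 32.4% of its 75-base stretches with other genes, so its level is less certain than that of Vmn1r28, which shares 0.217%.

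**Figure D1:**
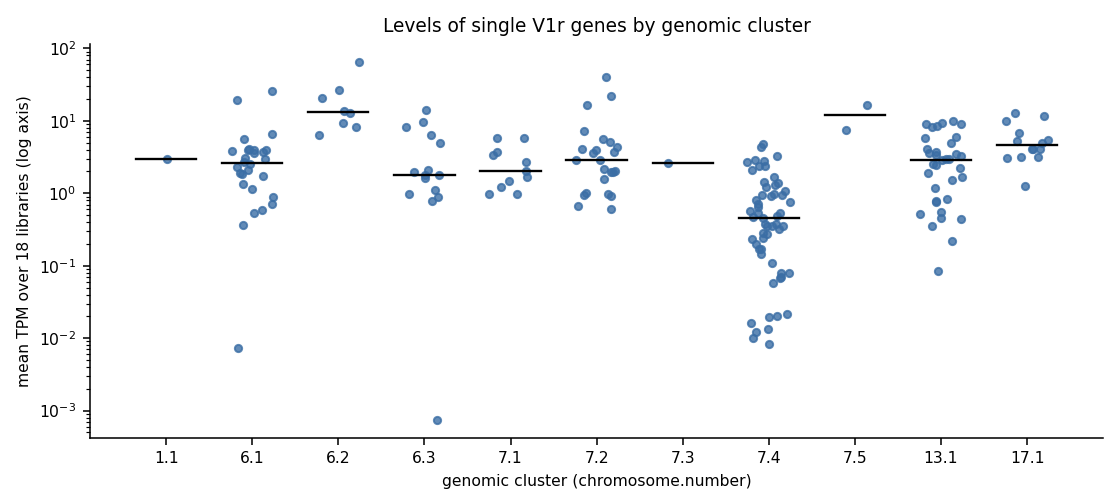
Mean TPM over 18 libraries (log axis) of each V1r gene with a value above 0 in the 11 clusters of at least 1 CPM, by genomic cluster (chromosome and number), with a black line at the median of the genes plotted. Cluster 6.2 has a high median with Vmn1r37 at 65.4 TPM at its top, and cluster 7.4 has the lowest median of the clusters plotted.

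Among the 118 members that averaged 1 CPM or more and shared under 10% of their stretches with other genes, the coefficient of variation over the 18 libraries was 21.0% in the median and ranged from 10.7% in Vmn1r28 to 94.5% in Vmn1r20.

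The first comparison asked how V1r expression stood in AP-2εCre cKO, in which Cre is active outside V1r neurons. Vmn1r1 rose about 3-fold and was the only V1r gene called, while most other members had slightly higher values that did not pass the test. Its level was 9.58, 8.57 and 10.1 CPM in the cKO libraries, against 4.04, 2.33 and 3.51 CPM in flox and 2.29, 3.19 and 3.76 CPM in het. The cKO libraries all lay above all 6 controls. The means were 9.40 ± 0.765 CPM (SD, n = 3) against 3.19 ± 0.733 CPM (SD, n = 6), with a log2 fold change of 1.56 ± 0.20 (SE, adjusted p = 0.0353, quasi-likelihood test of edgeR, adjusted after Benjamini and Hochberg across every gene tested). The two-sided exact permutation test of log2(CPM + 1) gave p = 0.0119, the smallest that its 84 splits allow. Calls of all genes made up 0.0378% of the 18495 tested, and 1 of 177 V1r genes tested was called.

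Vmn1r1 (182154704 to 182164486 on the minus strand of chromosome 1) shares no 75-base stretch with any other gene. Its 3 annotated transcripts, of 3654, 3766 and 921 bases, all had reads in each AP-2εCre cKO library, at 117 to 454 estimated counts. In controls 1 or more of them was at 0 in 4 of 6 libraries, so the split between transcripts is uncertain. Leaving out single libraries kept the log2 fold change at 1.48 to 1.64, but the adjusted p ran from 0.042 to 0.249 and passed in 2 of 9 fits, without flox replicate 1 or without het replicate 1. The adjusted p was 3.14e-09 with DESeq2, 0.000714 with all 18 libraries in 1 edgeR fit and, in edgeR fits that ended the call, 0.0717 with the library series as a covariate, 0.171 with the replicate block, 0.248 with counts from length-scaled TPM, 0.471 with the lettered series alone and 0.0878 or 0.111 with flox or het controls alone.

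In the OMPCre line Vmn1r1 was at 6.69, 6.83 and 5.31 CPM in cKO, against 5.24, 5.15 and 4.54 in flox and 4.50, 3.95 and 3.46 in het. The cKO libraries again lay above all controls, by a log2 fold change of 0.49 ± 0.17 (SE), which did not pass the test (adjusted p = 1, edgeR) although the exact permutation p was 0.0119. The effects of the 2 lines differed by 1.07 ± 0.26 (SE) on the log2 scale with an unadjusted p of 0.000965 and an adjusted p of 0.654 (edgeR), and with an adjusted p of 0.0406 in DESeq2. Among the controls, AP-2εCre libraries held less Vmn1r1 than OMPCre libraries (3.19 ± 0.733 against 4.47 ± 0.684 CPM, SD, n = 6 each), which also did not pass (adjusted p = 0.615, edgeR).

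**Figure D2:**
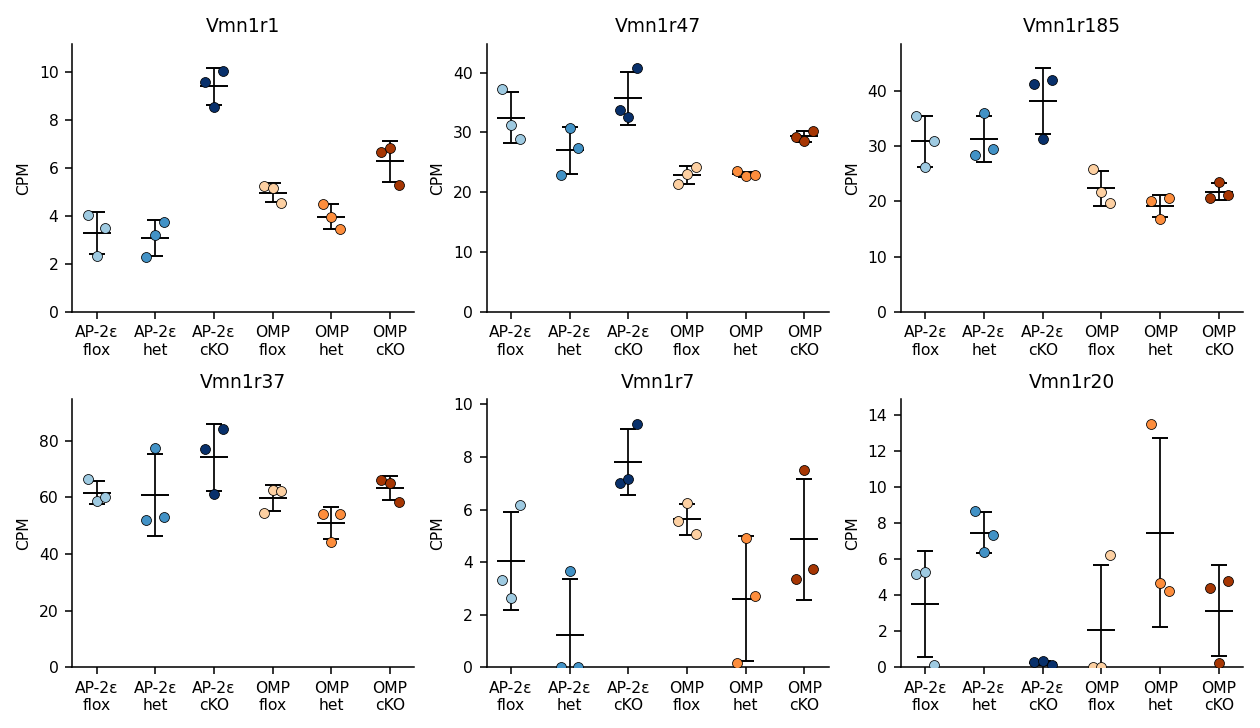
CPM of 6 V1r genes in each library (points) by group, with the mean and SD of 3 libraries as bars. The AP-2εCre cKO libraries stand apart for Vmn1r1, the AP-2εCre line lies above the OMPCre line for Vmn1r185, and Vmn1r20 and Vmn1r7 switch between libraries of the same group.

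Across the family, values in AP-2εCre cKO were slightly higher. Of 177 V1r genes tested, 135 had a positive log2 fold change and 42 a negative one, with a median of 0.20, against 50.6% positive and a median of 0.00 among all genes. At an unadjusted p under 0.05, 25 V1r genes were higher and 4 lower, or 14.1% and 2.26% of those tested, against 4.18% and 6.04% of all genes. Without cKO replicate 1 the excess of higher ones was lost, with 3 higher and 4 lower, and the count of higher ones was 41 without cKO replicate 2, 15 without cKO replicate 3 and 18 to 31 without single controls. The median of 0.20 fell to 0.10 without cKO replicate 1. None of these but Vmn1r1 passed the adjustment in edgeR, and DESeq2 called 4 of the 177, adding falls of Vmn1r114, Vmn1r119 and Vmn1r20, against 1.67% of all genes, a share near the 2.26% of the members. When libraries were scaled by their own V1r total, 83 were higher and 94 lower with a median of -0.03, of which 1 was higher and 9 lower at an unadjusted p under 0.05, and that scaling moved the median of all genes to -0.22. Scaling by the V1r total removes any shift that the family shares. A near-even split therefore follows from it and cannot test such a shift. The count of higher genes was 113 to 146 when single libraries were left out, and 113 of 177 within the 2 libraries of each group that share a lettered naming series, an alternative chosen after seeing the data in which 2 were higher and 5 lower at an unadjusted p under 0.05. The lettered series also leaves out cKO replicate 1, so the 2 results are not separate checks.

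The total over all V1r genes overlapped between the groups. As a percent of all counts, it was 0.308, 0.217 and 0.262 in AP-2εCre cKO against 0.162 to 0.242 in controls (log2 ratio of means 0.39), and 0.224, 0.208 and 0.244 in OMPCre cKO against 0.157 to 0.250 (0.12). The first ratio was 0.26 without cKO replicate 1 and up to 0.51 without any other single library. The second was 0.055 without flox replicate 1, 0.062 without cKO replicate 3 and up to 0.18 without any other single library. As normalized CPM, it was 2731, 2074 and 2470 CPM in AP-2εCre cKO against 2188, 1865 and 2079 in flox and 1786, 2411 and 2113 in het, a ratio of means of 1.17. The second cKO library, the deepest, lay within the range of the controls. In the OMPCre line the totals were 2279, 2099 and 2426 CPM in cKO against 1804, 1764 and 2246 in flox and 2106, 2144 and 2161 in het, a ratio of 1.11. In every group but AP-2εCre het, the V1r percent was highest in the library outside the lettered series, and the part of the series was not tested.

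**Figure D3:**
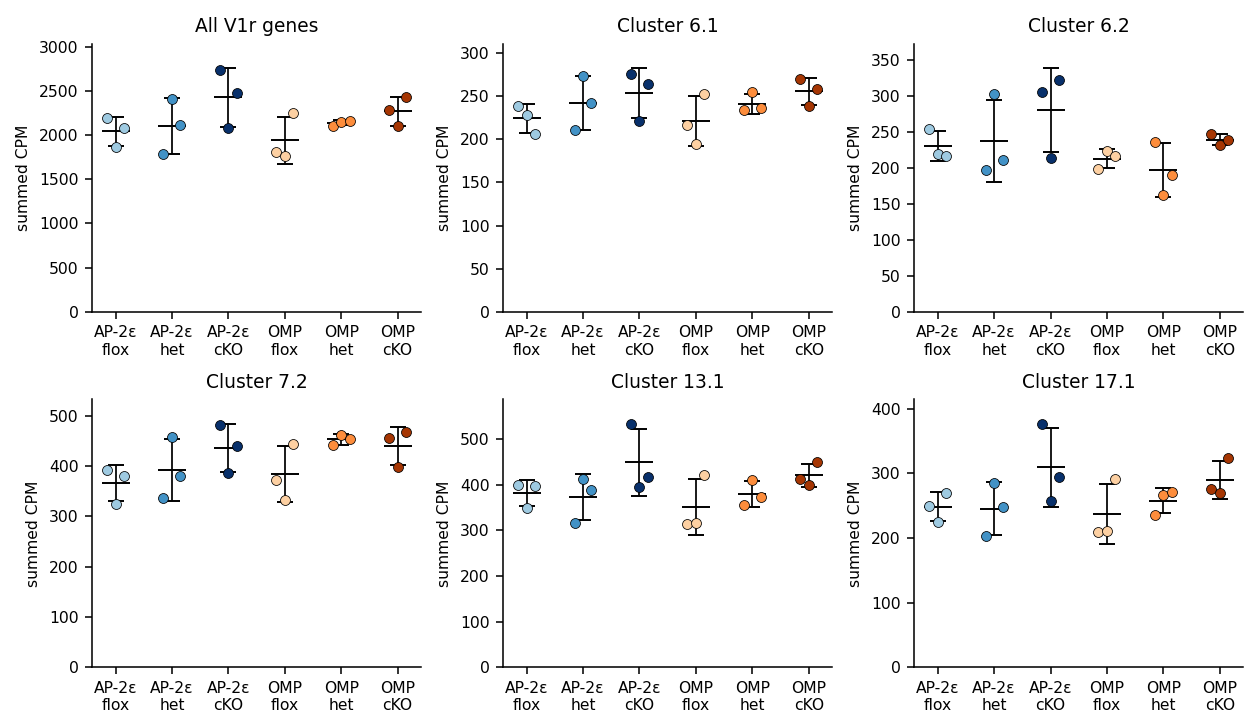
Summed CPM of all V1r genes and of 5 genomic clusters in each library (points) by group, with the mean and SD of 3 libraries as bars. In each panel the cKO mean lies above the mean of the controls of its line, and the cKO libraries overlap the controls.

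The same direction held in the clusters. In AP-2εCre cKO the mean of all 11 clusters with a mean of at least 1 CPM was higher than in controls, and only Vmn1r1, which is a cluster by itself, had groups that did not overlap. The log2 ratio of summed CPM was 0.43 in cluster 7.3, which is a single gene, 0.33 in cluster 17.1, 0.31 in 7.5, 0.27 in 6.3, 0.26 in 6.2, 0.25 in 13.1, 0.20 in 7.2, 0.12 in 6.1 and 0.10 in both 7.1 and 7.4. Some of these ratios leaned on cKO replicate 1. The cKO libraries were at 376.5, 256.7 and 294.3 CPM in cluster 17.1 and at 533.2, 395.3 and 417.6 in 13.1. All 11 clusters stayed higher without any single library. In cluster 13.1, 31 of 34 genes tested were higher, and in cluster 7.4, where many members are near-identical, 23 of 41. All 13 V1re genes, which lie in clusters 7.2, 7.5 and 17.1, and all 8 V1ra genes had positive log2 fold changes. V1rh genes had 17 of 19 and V1rc genes 20 of 30, whereas V1rd genes had 9 of 18 with a median of -0.0021.

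Among V1r genes other than Vmn1r1 whose cKO libraries lay above all controls and which had at least 1 CPM, those with the largest changes in AP-2εCre were Vmn1r7, Vmn1r208, Vmn1r199 and Vmn1r80. Vmn1r208 (V1rh9) was at 8.13, 7.44 and 7.83 CPM in cKO against 4.81 to 7.15 in controls, with a log2 difference of 0.42 ± 0.14 (SE, adjusted p = 0.356, edgeR). Vmn1r199 (V1rh4) was at 12.3, 10.6 and 11.7 CPM against 6.79 to 10.1, and Vmn1r80 (V1rg3) at 11.9, 9.57 and 10.5 CPM against 7.61 to 9.51. None of the 4 passed the test. In all, 8 of 177 members tested lay above all controls and 0 below, against 2.21% and 2.85% of all genes tested.

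Markers of some cell types moved with the same comparison. The apical neuron list (Gnai2, Meis2, Pde4a, Nrp2, Gng8 and Keap1) had 6 of 6 positive log2 fold changes with a median of 0.28, and its summed level was 1161 to 1207 CPM in cKO against 891 to 1080 in controls. Gnai2, Nrp2 and Pde4a lay above all controls in cKO. Immature neuron markers had 6 of 6 positive differences, with a summed level of 296.5 to 353.7 CPM in cKO against 210.3 to 293.2 in controls, which did not overlap. Of sustentacular and gland markers 5 of 6 were negative, with a summed level of 33170 to 59650 CPM in cKO against 50220 to 120100 in controls, which overlapped. Other lists overlapped. The basal neuron list had 2 of 7 higher, with a sum of 759 to 930 CPM against 730 to 1060. The mature neuron list had 3 of 4 higher, at 756 to 856 CPM against 570 to 857. Ensheathing glia were at 69.3 to 78.8 CPM against 67.0 to 103, and endothelium at 112 to 1404 CPM against 136 to 643. None of these marker genes was called, and their part in the V1r values was not tested. The V1r total relative to the V2r total was 0.828 to 0.984 in AP-2εCre cKO against 0.432 to 0.477 in flox and 0.593 to 0.899 in het. The V2r total itself was 2229 to 2984 CPM in cKO against 3913 to 4810 in flox and 1986 to 3592 in het. Markers of main olfactory neurons were at 165 to 198 CPM against 127 to 198, which overlapped.

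In the OMPCre line, where Cre is active in mature V1r neurons as well, no V1r gene was called of 178 tested, and 0.0% of 18623 genes were called. At an unadjusted p under 0.05, 20 V1r genes were higher and 2 lower, or 11.2% and 1.12%, against 2.06% and 1.88% of all genes. The count of higher ones was 8 without cKO replicate 1, 13 without cKO replicate 3 and 16 to 24 without any other single library. DESeq2 called 1, Vmn1r47, against 0.231% of all genes. Of the 178, 137 had a positive log2 fold change and 41 a negative one, with a median of 0.17 against 48.7% positive and a median of -0.01 among all genes. Scaled by the V1r total, 93 were higher and 85 lower, of which 2 and 6 had an unadjusted p under 0.05. Here too the near-even split follows from the scaling. The apical marker list moved in the same direction here too, with 5 of 6 genes higher and a summed level of 1102 to 1156 CPM in cKO against 953 to 1045 in controls, which did not overlap. The immature list was at 197 to 303 CPM against 236 to 294 and the sustentacular and gland list at 52610 to 71400 CPM against 35010 to 108700, which both overlapped. The basal list, at 838 to 934 CPM against 783 to 918, and the mature neuron list, at 513 to 668 CPM against 588 to 829, overlapped too. The part of these markers was not tested.

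Vmn1r47 (V1ra4, cluster 6.3) was at 29.3, 28.5 and 30.2 CPM in OMPCre cKO against 21.4, 23.1 and 24.2 in flox and 23.5, 22.7 and 22.8 in het. All 3 cKO libraries lay above all 6 controls, with a log2 fold change of 0.35 ± 0.06 (SE, adjusted p = 0.308 in edgeR and 0.00152 in DESeq2). In AP-2εCre cKO it was at 33.7, 32.6 and 40.7 CPM against 22.9 to 37.2, which overlapped. Vmn1r24, Vmn1r14, Vmn1r169 and Vmn1r32 also lay above all OMPCre controls. Vmn1r32 (V1rc15) was at 30.4, 28.1 and 30.4 CPM against 15.2 to 26.2, and Vmn1r14 (V1rc7) at 5.92, 5.69 and 5.51 CPM against 3.03 to 4.74. None of the 4 passed the test, and 10 of 178 members lay above all controls and 0 below, against 1.41% and 0.934% of all genes.

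The clusters were higher in 9 of 11 cases in OMPCre cKO, and lower in 7.1 (log2 ratio -0.04) and in 7.3 (-0.15). Cluster 7.1, which holds V1rd genes, had 4 of 11 members higher and a median log2 fold change of -0.17. In cluster 6.2, 8 of 8 members were higher with a median of 0.23, and in 13.1, 31 of 35.

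**Figure D4:**
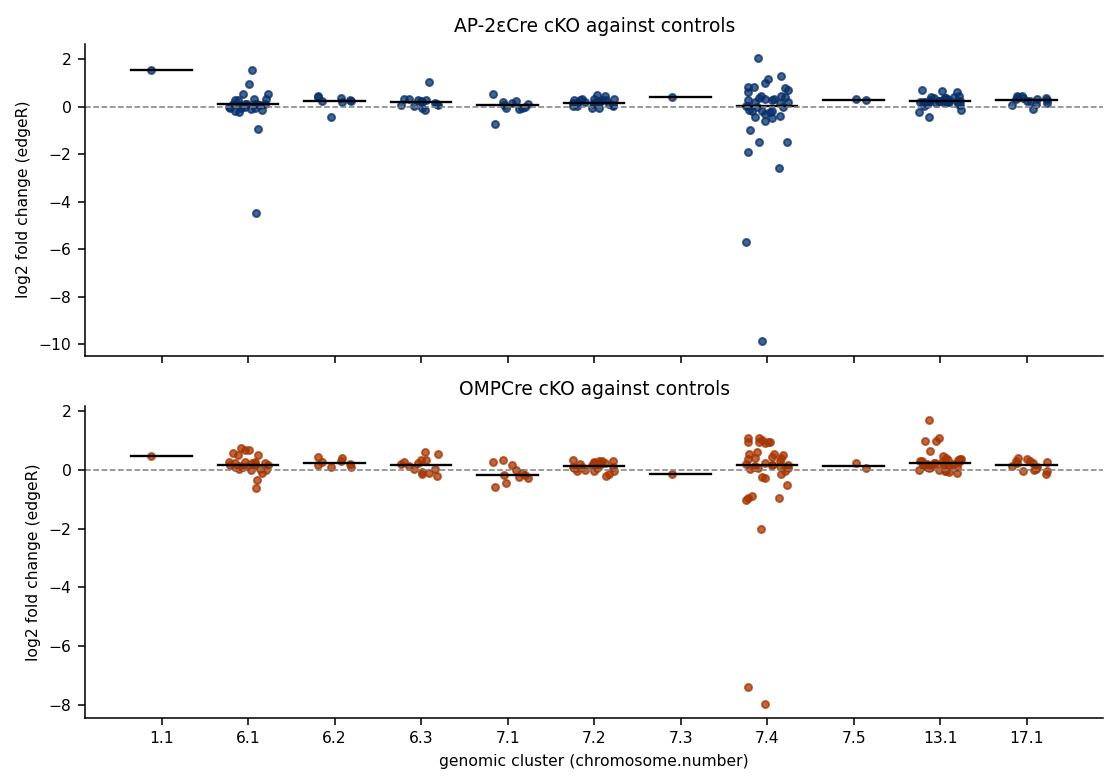
Log2 fold change (edgeR) of each V1r gene tested, cKO against the 6 controls of its line, by genomic cluster, with a black line at the median and a dashed line at 0. The medians lie above 0 but for clusters 7.1 and 7.3 in OMPCre, and the lowest points of cluster 7.4 (Vmn1r114 and Vmn1r119, and Vmn1r126 and Vmn1r95) had 0 or 1 count in every cKO library, so that their fitted values are no bound.

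The 2 cKO comparisons share no libraries. Of 175 V1r genes tested in both, 108 were higher in both, 13 lower in both and 54 differed in sign, while 5113 of 18137 genes in all were higher in both. Vmn1r1, Vmn1r22, Vmn1r32, Vmn1r192, Vmn1r224 and Vmn1r228 had an unadjusted p under 0.05 with higher values in both lines. Over all 18137 genes, 85 were higher at an unadjusted p under 0.05 in both. Vmn1r1 was the only one of the V1r genes whose cKO libraries lay above all controls in both, as did those of 32 of all genes. The difference between the effects of the lines was called for no V1r gene of 182 in edgeR, against 0.00514% of all genes, and for 3 (Vmn1r1, Vmn1r119 and Vmn1r126) in DESeq2, against 0.257%. Vmn1r119 had 0, 1 and 0 counts in AP-2εCre cKO, and Vmn1r126 had 0 in every OMPCre cKO library. Summed with its near-identical genes, Vmn1r126 had a log2 ratio of 0.17 in both lines. At an unadjusted p under 0.05, 6 of the 182 differed, against 5.05% of all genes.

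Among the 19 genes of V1r signal transduction, none was called in either cKO comparison. In AP-2εCre cKO 12 were higher and 7 lower, and Gnai2, Pde4a and Rtp1, which helps odorant receptors to the cell surface, lay above all controls, whereas Ano1, a calcium-activated chloride channel, lay below. Ano1 had a log2 difference of -0.41 (adjusted p = 0.317, edgeR). In OMPCre cKO 10 were higher and 9 lower, and Kcnj3, a potassium channel subunit, lay below all controls (log2 -0.68). Trpc2 was at 0.14 in AP-2εCre and -0.25 in OMPCre on the same scale, neither past the test. Of 16 genes of receptor choice, none was called in either line. In AP-2εCre cKO, Lhx2, a homeodomain factor of olfactory neurons, and Adcy3, the adenylyl cyclase of main olfactory neurons, lay above all controls (log2 0.34 and 0.25), and the transcription factor gene Rfx3 lay below (-0.20). In OMPCre cKO, Ebf1, Ebf3 and Meis2 lay above all controls (0.16, 0.31 and 0.20) and none lay below. Of all genes tested, 2.21% lay above and 2.85% below all controls in AP-2εCre cKO, and 1.41% above and 0.934% below in OMPCre cKO.

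Heterozygotes, which carry 1 Cre allele and no homozygous Smad4flox, were compared with flox controls. No V1r gene was called in either line by edgeR, against 0.0224% and 0.0441% of all genes, and DESeq2 called 0 in the AP-2εCre line, against 0.942% of all genes. In the AP-2εCre line 89 were higher and 80 lower, against 51.6% of all genes higher, and 7 were higher and 2 lower at an unadjusted p under 0.05, against 2.66% and 2.52% of all genes. In the OMPCre line 115 were higher and 59 lower, against 49.1% of all genes higher, and 15 were higher and 1 lower at an unadjusted p under 0.05, against 2.89% and 2.65%. Without single libraries the count of higher ones was 2 to 11 in the AP-2εCre line, lowest without flox replicate 2 or het replicate 2 and highest without het replicate 1. Without het replicate 2 the direction turned, with 2 higher and 11 lower. In that fit 74 of 172 members had a positive log2 fold change, with a median of -0.099. For OMPCre it was 5 without flox replicate 1, 6 without flox replicate 2, 42 without flox replicate 3, 8 without het replicate 2 and 11 without either other het library. The groups did not overlap in 21 members that were higher in OMPCre het and in 5 that were lower, against 6.62% and 4.99% of all genes. Scaled by the V1r total, the OMPCre split was 79 higher and 95 lower, but that scaling removes any shift shared by the family. Vmn1r49 (V1rb2), a receptor known to respond to a ketone of mouse urine, was at 8.18, 11.7 and 8.89 CPM in OMPCre het against 5.10, 4.47 and 7.18 in flox, which did not overlap and therefore had an exact permutation p of 0.1, the smallest possible with 3 against 3. DESeq2 called 1 gene in the OMPCre heterozygotes, Vmn1r95 of a near-identical unit, against 0.877% of all genes. The OMPCre het libraries also stood apart in markers of main olfactory neurons. All 3 of these (Cnga2, Adcy3 and Gnal) lay above all flox libraries, with a summed level of 177 to 221 CPM against 81.5 to 117, and the apical list was at 1014 to 1045 CPM against 953 to 999.9. The basal list was lower in sum, at 783 to 826 CPM against 869 to 918, which did not overlap, although 3 of its 7 genes were higher. In AP-2εCre het 6 of 7 markers of basal neurons lay below all flox libraries, against 5.03% of all genes that lay below and 4.84% above (12 V1r genes lay above and 5 below), with a summed level of 730.2 to 857 CPM against 887 to 1060. None of the marker genes was called by edgeR in either line, and their part in the V1r values was not tested.

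The 6 controls of the AP-2εCre line were then compared with the 6 of the OMPCre line. No V1r gene was called of 180 in edgeR, against 0.0950% of all genes, with 15 at an unadjusted p under 0.05, against 6.56% of all genes, and DESeq2 called 3, against 0.739% of all genes. Vmn1r185 (V1re12, cluster 7.5) was the only member whose 6 libraries of one line lay above the 6 of the other, against 0.253% of all genes. It was at 35.5, 26.3 and 31.0 CPM in AP-2εCre flox and 28.3, 36.0 and 29.4 in het, against 25.8, 21.7 and 19.6 in OMPCre flox and 20.1, 16.9 and 20.5 in het. The log2 fold change was 0.58 ± 0.11 (SE, adjusted p = 0.0878 in edgeR and 0.000241 in DESeq2), with an exact permutation p of 0.00216, the smallest that 6 against 6 allow. Groups of 6 against 6 that do not overlap always give this p, so it only repeats the separation. The cKO libraries followed their line, at 41.3, 31.3 and 41.9 CPM in AP-2εCre and 20.6, 23.4 and 21.2 in OMPCre. The difference also held within the flox groups, which carry no Cre allele and did not overlap, whereas line and colony cannot be told apart.

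In a test of any difference among the 6 groups, 3 of 182 V1r genes were called, against 0.765% of all genes, and DESeq2 called 9, against 4.41% of all genes. Vmn1r1 had an adjusted p of 0.00553, Vmn1r185 of 0.0133 and Vmn1r47 of 0.0345 (edgeR). Vmn1r47 lost its call with the replicate block (adjusted p = 0.0685 in edgeR), with the V1r total as library size (0.153) and in 14 of 18 fits without a single library, in which the adjusted p ran from 0.0232 to 0.0917. With counts from length-scaled TPM none of the 3 was called (adjusted p = 0.156 to 0.195, edgeR).

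Some members differed widely between libraries of the same group. Vmn1r20, chosen after its values were seen, had 199, 237 and 6 estimated counts in AP-2εCre flox, 562, 415 and 416 in het and 19, 46 and 7 in cKO. In the OMPCre line it had 1, 1 and 336 in flox, 863, 281 and 291 in het and 282, 14 and 262 in cKO. The AP-2εCre cKO libraries were all low, and so were 1 flox library of that line, 2 flox libraries of the other and 1 OMPCre cKO library. edgeR gave a log2 fold change of -4.47 in AP-2εCre cKO (adjusted p = 0.269), and DESeq2 called it (adjusted p = 0.000441). The edgeR fit with het controls alone, all of which were high, called it too (adjusted p = 0.0241).

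Vmn1r7, another gene of cluster 6.1, ran the other way. It was at 7.02, 7.15 and 9.26 CPM in AP-2εCre cKO, 3.34, 2.64 and 6.17 in flox and 0, 3.67 and 0 in het. In the OMPCre line it was at 5.57, 6.24 and 5.06 CPM in flox, 0.172, 4.92 and 2.72 in het and 3.34, 7.49 and 3.75 in cKO. The 7 libraries with 1 to 46 counts of Vmn1r20 held 5.57 to 9.26 CPM of Vmn1r7, and the other 11, with 199 to 863 counts, held 0 to 5.06 CPM. Vmn1r20 shares 7.95% of its 75-base stretches with other genes (closest Vmn1r27) and Vmn1r7 shares 28.5% (closest Vmn1r8), and the 2 genes share no such stretch with each other.

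In near-identical genes the counts of single members often varied more between libraries than their sum. The unit of Vmn1r93, Vmn1r114, Vmn1r121 and Vmn1r126 summed to 140 to 547 counts per library, and its CPM had a coefficient of variation of 16.6%, against a median of 112% for its single members. Of the 72 values of single members, 27 were 0. Vmn1r114 had 236 and 161 counts in AP-2εCre het replicates 1 and 3, in which Vmn1r93 had 0, and 0 in all 3 cKO libraries, in which Vmn1r93 had 220, 390 and 248. The log2 ratio of the summed unit in AP-2εCre cKO was 0.17, so the fall of Vmn1r114 that DESeq2 called was not seen in the sum. In 12 of 13 units the median coefficient of variation of single members was above that of their sum. Other sums varied more widely than this one, by 23.6% to 63.9% in the other 7 units that had at least 1 count in every library. The 7 genes around Vmn1r95, with 74 of 126 values at 0, summed to 13 to 201 counts, with a coefficient of variation of 51.6% against 146% for the median member. Their summed log2 ratio was -0.93 in AP-2εCre cKO and 0.94 in OMPCre het, the comparison in which DESeq2 called a rise of Vmn1r95.

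**Figure D5:**
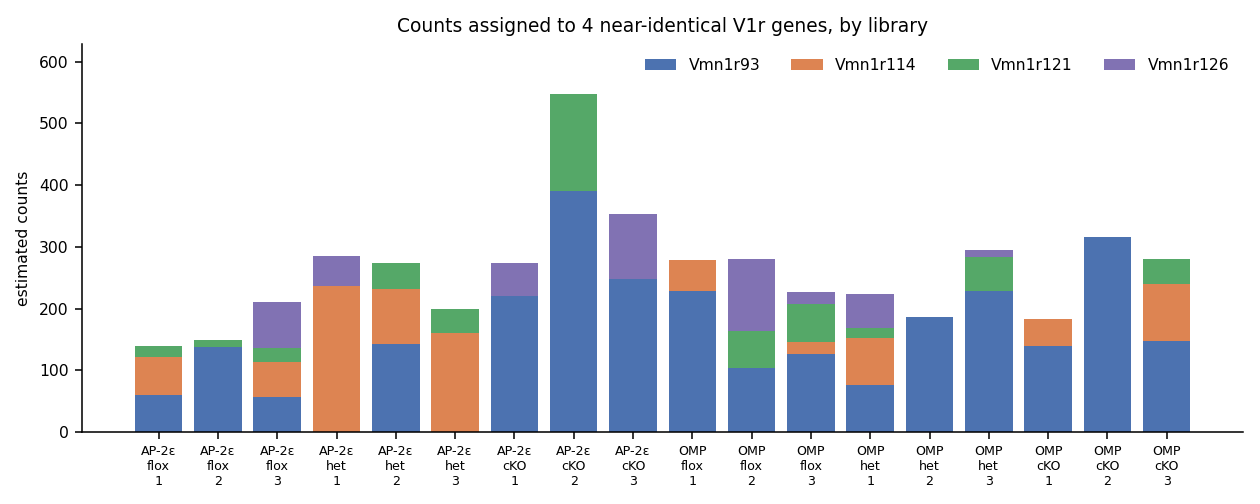
Estimated counts assigned to Vmn1r93, Vmn1r114, Vmn1r121 and Vmn1r126 in each library, stacked, with group and replicate below. The sum stays at 140 to 547 counts in every library while the share of each gene changes, down to 0 for Vmn1r114 in all AP-2εCre cKO libraries.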

How the data were processed

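The authors sequenced strand-specific libraries of polyA+ RNA with single reads of 75 bases and quantified these with Salmon 0.14.0 on mm10 (GRCm38) transcripts, and then used DESeq2 1.22.2, whose tables were not used here. The deposited unit is an estimated count per transcript, not normalized, and the authors' TPM stands beside it. The study's methods name a coding set, whereas deposited lengths of some V1r transcripts exceed their coding length. Of 116248 transcripts, 116072 matched GENCODE vM21. Counts were added per gene and rounded.

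Groups came from the labels. One library, titled het and labelled cKO, was left out. The main test was edgeR 4.0.16 (R 4.3.3) on counts, two-sided, with TMM, filterByExpr and Benjamini-Hochberg adjustment over all genes at 0.05. DESeq2 1.42.0 and other settings were alternatives. Single genes were tested by exact permutation of log2(CPM + 1). Labels do not give the source of each replicate beyond the animal, so p-values measure the spread between these libraries.

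Members and lists were chosen with earlier results of these data known. Genes named were those called in a cKO comparison or in the difference between lines, the 8 highest by TPM, up to 5 largest rises and 5 falls per cKO comparison among members of at least 1 CPM with groups that did not overlap, members called in the other tests, and Vmn1r1, Vmn1r49, Vmn1r85 and Vmn1r89. Others are named after their values were seen, among them Vmn1r20, Vmn1r93, Vmn1r95, Vmn1r114 and the genes called by DESeq2 alone. The older names and subfamilies are from RefSeq, and coding sequences and positions from GENCODE vM21 transcripts.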

Additional observations from a re-analysis of the deposited data

Results flagged for a closer look

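One library of the AP-2εCre line, whose title and genotype label disagree, was in no comparison. V1r genes took 0.297% of its counts, above the 0.162% to 0.242% of the 6 AP-2εCre controls. Its Vmn1r1 level was 7.83 CPM before TMM normalization (387 counts), above the 2.08 to 3.75 of those controls and below the 8.96 to 10.8 of the 3 AP-2εCre cKO libraries. It had 712 estimated counts of Vmn1r20 and 0 of Vmn1r7. Both were noted as signals in data outside the comparisons, and the library was assigned to no group.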

How the results depend on the processing

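Of the counts of called V1r genes, that in AP-2εCre cKO was 4 with DESeq2 and 0 with counts from length-scaled TPM, the library series as a covariate, the replicate block, flox controls alone or the lettered series alone, and 0 to 1 without single libraries. DESeq2 called 1 in OMPCre cKO, 1 in OMPCre het, 3 between the lines, 3 for the difference of effects and 9 among the 6 groups. In the same order, it called 0.231%, 0.877%, 0.739%, 0.257% and 4.41% of all genes. Counts from length-scaled TPM gave 0 among the 6 groups, and all 18 libraries in 1 fit gave 1 between the lines. Without single libraries the count was 0 to 1 in AP-2εCre het and between the lines. The cause was not tested. Numbers were not taken to pair the samples in the main tests. Correlations of deviations of same-numbered samples ran from -0.308 to 0.192 in the AP-2εCre line. In the OMPCre line they ran from 0.0218 to 0.523, with a mean of 0.238 against -0.116 for other pairs. A structure shared by number can therefore not be set aside in the OMPCre line. Replicate 3 was the library outside the lettered series in each OMPCre group. The replicate block ended the calls of Vmn1r1 in AP-2εCre cKO (adjusted p = 0.171 in edgeR) and of Vmn1r47 among the 6 groups (0.0685), and with it 29 rather than 22 members of the OMPCre cKO comparison had an unadjusted p under 0.05. Scaled by the V1r total, which removes any shift shared by the family, 83 members were higher in AP-2εCre cKO. The log2 ratio of the V1r percent in OMPCre het was 0.034 to 0.39 without single libraries, lowest without flox replicate 1 and highest without flox replicate 3.

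Scaling by the V1r total removes any rise shared by the family and so lowers values by itself. Among named genes that were not called, small values turned negative. With the V1r total as library size these were, in AP-2εCre, Vmn1r89 (-0.034), Vmn1r27 (-0.12), Vmn1r28 (-0.14) and Vmn1r49 (-0.17), and in OMPCre, Vmn1r89 (-0.068), Vmn1r35 (-0.062), Vmn1r27 (-0.11), Vmn1r85 (-0.093), Vmn1r33 (-0.0088), Vmn1r28 (-0.023), Vmn1r185 (-0.11) and Vmn1r49 (-0.11). With het controls alone they were Vmn1r27 (-0.035) and Vmn1r49 (-0.093) in AP-2εCre, and Vmn1r89 (-0.025), Vmn1r27 (-0.020), Vmn1r85 (-0.10) and Vmn1r49 (-0.31) in OMPCre. With flox controls alone in OMPCre they were Vmn1r35 (-0.0087) and Vmn1r185 (-0.046). Length-scaled TPM turned Vmn1r85 (-0.013), Vmn1r14 (-0.21), Vmn1r185 (-0.00011) and Vmn1r49 (-0.13) in OMPCre, and the lettered series alone turned Vmn1r28 (-0.0067) in AP-2εCre and Vmn1r49 (-0.063) in OMPCre. Without single libraries the log2 values ran from -0.10 to 0.24 (Vmn1r27) and -0.053 to 0.11 (Vmn1r49) in AP-2εCre, and from -0.14 to 0.19 (Vmn1r27), -0.020 to 0.16 (Vmn1r85) and -0.11 to 0.18 (Vmn1r49) in OMPCre.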
